A study of Caenorhabditis elegans with 6 samples.

Results

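The RNA of the wildtype distal gonad of *Caenorhabditis elegans* was described from the 3 libraries titled as wildtype strain N2, replicates 1 to 3, out of 6 libraries in the series. The other 3 libraries, from *set-2(bn129)* mutants, were not used here. Animals of strain N2 carried no transgene or mutation named in the labels and were taken 12 h past the L4 larval stage, when they are young adults. Gonads from 5 to 7 of them were pooled in a sample, severed at the bend, and only the portion distal to the bend was collected. Its RNA was sequenced after depletion of ribosomal RNA. Reads were counted on 46772 genes, of which 19686 were protein-coding genes of the nuclear genome.

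The gonad is a tube in which germ cells mature in order. At the distal end a somatic distal tip cell keeps a pool of stem cells dividing through the Notch receptor GLP-1. Cells that leave this pool enter meiotic prophase, pair and synapse their homologous chromosomes, and in pachytene also make RNA and protein for the growing oocytes through a shared cytoplasm. Thin somatic sheath cells cover the tube, and sperm are made in a larval stage that precedes adulthood.

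Total counts were 25231478, 24814518 and 24983137 in replicates 1, 2 and 3. A gene with 0 counts in all 3 libraries could hold up to 0.040 CPM (counts per 1000000 counts of the library), the level of 3 counts in the summed libraries, and this limit covers counting error only. A gene was called detected at 1 CPM or more in each library. Levels between genes were compared as TPM, which are counts divided by exon length and scaled to a sum of 1000000 over nuclear protein-coding genes in each library. Nothing in the labels says whether the 3 samples came from separate cultures, so the SD between libraries may be technical. The tissue label was checked against a short set of markers. The 9 germ line markers had 34.8 to 427 TPM, from *syp-1* to *pgl-1*, and the 6 oocyte markers 32.6 to 776 TPM, from *puf-7* to *rme-2*. Markers of other tissues were mixed, with some near 0 and others clearly present, and are given with the somatic lists below.

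Protein-coding genes of the nuclear genome held 83.6%, 83.1% and 84.2% of all counts in replicates 1, 2 and 3. Ribosomal RNA made up most of the remainder. Cytosolic rRNA genes took 7.58%, 9.37% and 6.78%, of which 84.7% to 88.2% fell on *rrn-3.1*, the large subunit rRNA. The rRNA genes of the mitochondrial genome took 6.49%, 5.52% and 6.84%. Replicate 2 was the highest in cytosolic rRNA and the lowest in mitochondrial rRNA. The 12 protein-coding genes of the mitochondrial genome were all detected and held 1.44%, 1.18% and 1.42%, led by *COX1* at 4854 CPM and *CYTB* at 2057 CPM, subunits of respiratory complexes.

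**Figure D1:**
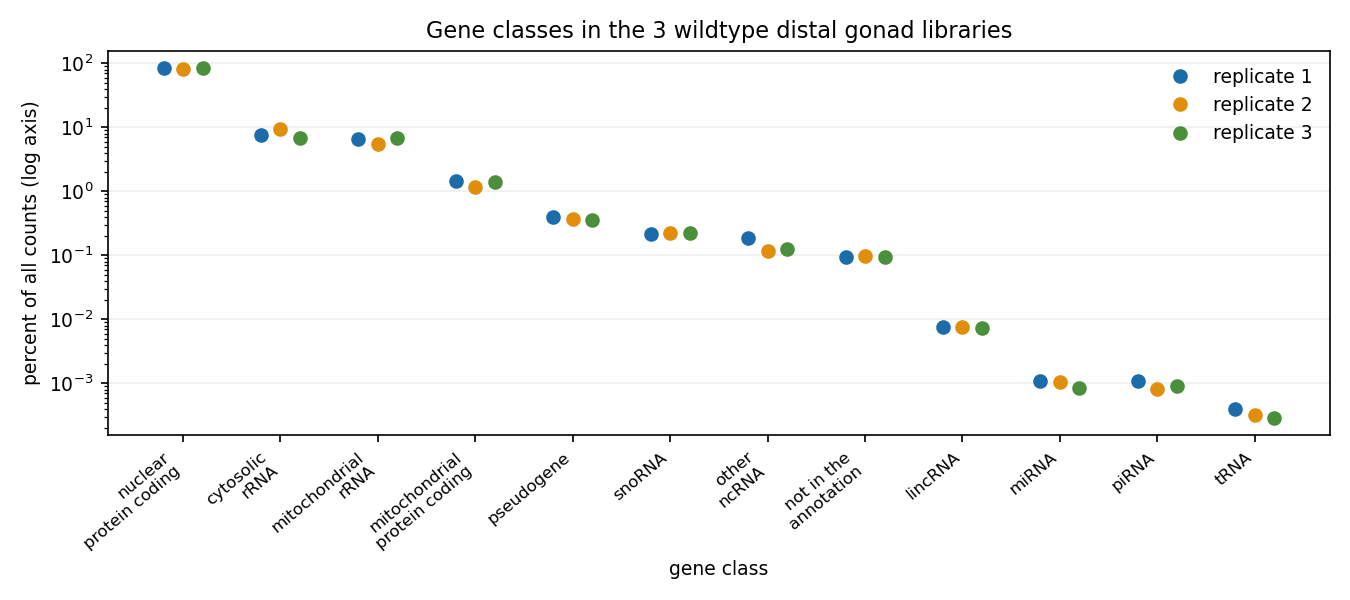
Percent of all counts in each gene class (log axis) in the 3 wildtype libraries, 1 point per library. Protein-coding genes lie above 83% in each library, cytosolic rRNA spans 6.78% to 9.37%, and piRNA and tRNA genes lie at or under 0.0011%.

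Other non-coding classes were small. Genes annotated as snoRNA held 0.217%, 0.221% and 0.222% of counts, and a single gene, *ZK185.9* on chromosome IV, carried 79.4% to 84.6% of them, with 1821 CPM. After the rRNA and mitochondrial genes, the other non-coding genes of highest level were 3 pseudogenes of 385 to 430 CPM and the ncRNA gene *srpr-2.2* at 389 CPM. The ncRNA class took 0.190%, 0.119% and 0.127%. Within it *rpr-1*, the RNA component of RNase P, had 13325, 5362 and 6583 counts, and *srpr-2.2* had 13522, 7480 and 8256 counts, so both were highest in replicate 1. The 15363 piRNA genes, whose products are short RNAs, held 274, 204 and 226 counts in all.

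Of the 19686 protein-coding genes, 7224 (36.7%) were detected and 5033 (25.6%) had 0 counts in every library. A further 7071 genes had counts but a mean under 1 TPM, and together they held 0.201% of protein-coding counts. Between 10 and 100 TPM lay 3719 genes with 33.2% of these counts, and 1453 genes at 100 to 1000 TPM held 37.4%. The 117 genes at 1000 TPM or more held 27.9%. The counts were thus spread over many genes: the highest gene held 1.74% ± 0.058 (SD, n = 3), the top 10 held 6.51% ± 0.065, and 494 genes were needed to reach 50%. On the TPM scale, which gives short mRNAs more weight, 112 genes reached 50%.

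The gene at the top by both scales was *eef-1A.1*, which encodes the elongation factor that brings aminoacyl-tRNA to the ribosome. It lies on chromosome III, 6970026 to 6971712 (WBcel235), and its exons overlap a gene on the other strand. It had 370976, 366816 and 351208 counts in replicates 1, 2 and 3, a level of 13368 ± 442 TPM (SD, n = 3). The next 9 genes by TPM all encoded cytosolic ribosomal proteins. They were *rps-25* at 10826 TPM, *rpl-41.2* at 10561 TPM, *rps-23* at 9118 TPM, *rps-24* at 8929 TPM, *rps-7* at 8486 TPM, *Y37E3.8* (named *rpl-27A* in RefSeq) at 8096 TPM, *rps-11* at 7943 TPM, *rpl-43* at 7402 TPM and *rpl-14* at 7229 TPM. By CPM, which follows the mass of RNA, the leaders after *eef-1A.1* were the ribosome translocase *eef-2* at 7294 CPM, the chaperone *hsp-90* at 5477 CPM, the ribosomal stalk protein *rla-0* at 4681 CPM, *rps-7* at 4227 CPM, *rpl-3* at 3994 CPM and the chaperone *hsp-1* at 3912 CPM. The order by CPM then gave *cbd-1*, an eggshell protein, at 3858 CPM, *rps-0* at 3245 CPM and *rack-1*, a ribosome-bound scaffold, at 3195 CPM. The median exon length was 478 bases for the 10 genes highest by TPM and 1496.5 bases for the 10 highest by CPM, so the 2 orders favour different mRNAs, with 2 genes in both.

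**Figure D2:**
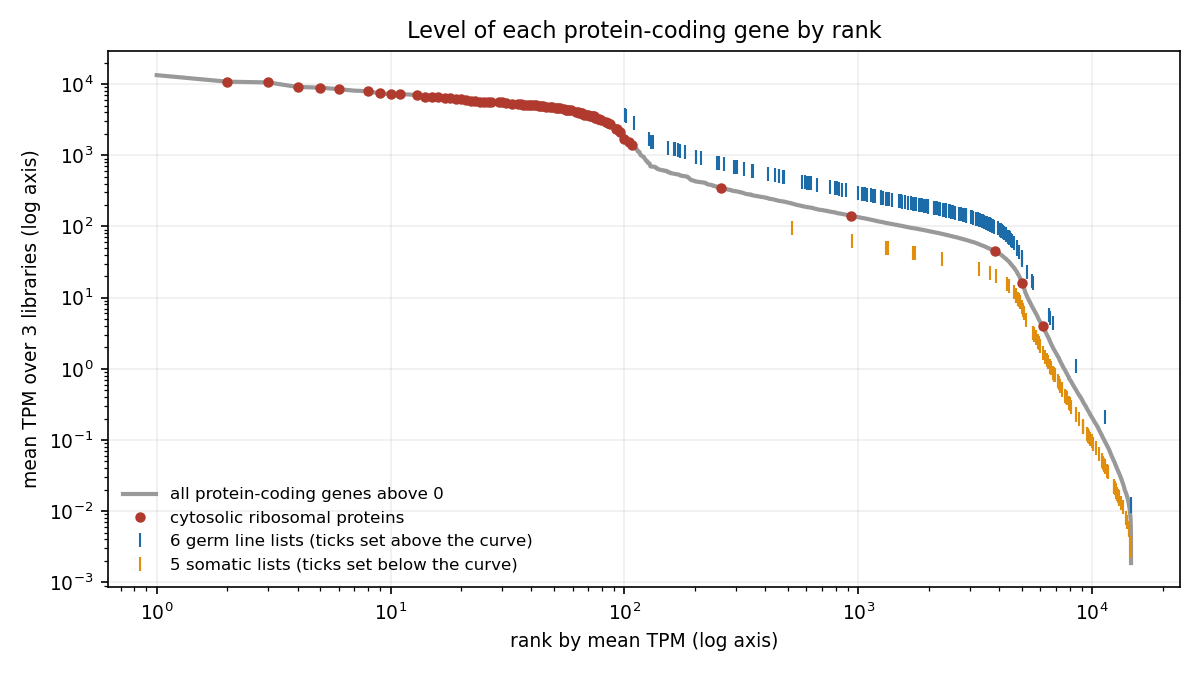
Mean TPM over the 3 libraries (log axis) of each protein-coding gene above 0, against its rank (log axis), with cytosolic ribosomal protein genes as points on the curve. Ticks above and below the curve give the ranks of the genes of the 6 germ line lists and of the 5 somatic lists.

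Genes for cytosolic ribosomal proteins formed the largest group. The 81 genes found by symbol held 17.9% ± 0.188 of protein-coding counts (SD, n = 3), 79 were detected, and the median gene had 4725 TPM. They filled 73 of the 100 highest ranks by TPM, and core histone genes filled 6 more. The 73 and the 17.9% leave out *Y37E3.8*, *C37A2.7* and *W01D2.1* (ranks 7, 34 and 47), which RefSeq names as ribosomal proteins. They also leave out the ribosomal protein fusions *ubq-2* and *ubl-1* (ranks 12 and 50). *his-64*, *his-62* and *his-60* had 5634, 5485 and 4546 TPM. Of the 80 histone genes 39 were detected and 28 had 0 counts, but most have near-identical copies, and the authors removed reads that map to several places, so the level of a single histone gene is uncertain. Apart from histones, 205 protein-coding genes in all share a symbol with another gene, and 189 of the 205 were at 0. Whether their sequences are near-identical was not examined.

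Outside ribosomal proteins and histones, the highest genes were of several kinds. *ubq-2* and *ubl-1*, each a ubiquitin or ubiquitin-like protein fused to a ribosomal protein, had 7153 and 4698 TPM. The RNA-binding proteins *rbm-3.2* and *cey-2*, a cold shock domain protein, had 4254 and 3067 TPM. Next came the nucleoside diphosphate kinase *ndk-1* at 3089 TPM, the translationally controlled tumour protein *tct-1* at 2819 TPM and *iff-1*, an eIF5A required in the germ line, at 2700 TPM. The nascent chain-binding subunits *icd-2* and *icd-1* had 2298 and 2062 TPM, and the mitochondrial ADP/ATP carrier *ant-1.1* had 1958 TPM. Over all protein-coding genes 36.7% were detected. All 19 translation factors listed were detected, with a median of 285 TPM. Every listed member of 6 further families was detected, which are the 33 proteasome subunits (median 273 TPM), 31 tRNA synthetases (142 TPM), 69 mitochondrial ribosomal proteins (100.4 TPM), 26 nuclear pore proteins (97.6 TPM), 8 CCT chaperonin subunits (387 TPM) and 8 MCM proteins of the replicative helicase family (192 TPM).

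Genes of the germ line were nearly all present. Across 6 lists of germ line genes, 168 of 173 were detected, against 36.7% of all protein-coding genes, their median was 79.7 TPM, against 0.222 TPM over all protein-coding genes, and they held 5.27%, 5.23% and 5.16% of protein-coding counts. The lists were written from general knowledge of germ line genes, and their levels are given as a description.

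In the list of stem cell and mitotic zone regulators 25 of 26 genes were detected. The receptor *glp-1* (chromosome III, 9092241 to 9099698) had 128, 129 and 133 TPM in replicates 1, 2 and 3, and *lag-1*, the DNA-binding factor that acts below it, had 32.0, 30.5 and 32.0 TPM. Their targets *lst-1* and *sygl-1* differed in evenness. *lst-1* had 78.6, 75.3 and 75.1 TPM, whereas *sygl-1* had 35.4, 31.4 and 21.9 TPM, a coefficient of variation (CV, the SD over the mean of CPM) of 23.1%, the highest among germ line list genes above 5 CPM. The PUF proteins *fbf-1* and *fbf-2*, which repress meiotic entry, had 40.9 and 46.1 TPM. The highest members of the list were the PUF protein *puf-11* at 427 TPM, the cyclin *cyb-3* at 418 TPM and *gld-1*, a translational repressor that promotes meiosis, at 355 TPM. *fog-3*, which directs germ cells to sperm fate, was the undetected member, with 0, 0 and 5 counts.

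All 29 genes of chromosome axis, pairing and synapsis were detected at 31.9 to 161 TPM, and none was X-linked. The cohesin subunit *him-1*, the axis protein *him-3* and the axis protein *htp-1* were highest, at 161, 152 and 135 TPM. The meiotic cohesin *rec-8* had 101, 102 and 103 TPM in replicates 1, 2 and 3. Among synaptonemal complex genes, *syp-2*, *syp-6* and *syp-4* had 93.6, 91.6 and 90.1 TPM, while *syp-1* had 34.8 TPM. Of 31 recombination and checkpoint genes, 30 were detected, and the 31 spanned 2.56 to 111 TPM with a median of 52.7 TPM. *him-17*, *mre-11* and *xnd-1*, which act in making double-strand breaks, led them at 111, 104 and 101 TPM, and *spo-11*, the enzyme that makes the breaks, had 83.8, 80.9 and 81.1 TPM. The strand exchange protein *rad-51* and the crossover factor *cosa-1* had 71.2 and 39.0 TPM. The undetected member was *egl-1*, a trigger of apoptosis, with 30, 18 and 28 counts.

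Components of P granules, the RNA-rich bodies of germ cells, were all detected, 17 of 17. The RNA helicase *cgh-1* and its partner *car-1* had 696 and 694 TPM, the eIF4E isoform *ife-1* had 550 TPM, and the core proteins *pgl-1* and *glh-1* had 427 and 275 TPM. The 4 *meg* genes, whose proteins direct the granules in embryos, were all X-linked and were lower in level, with *meg-1* at 53.1 TPM, *meg-3* at 28.1 TPM, *meg-4* at 16.5 TPM and *meg-2* at 7.29 TPM. In the small RNA list 31 of 34 genes were detected. The Argonautes *wago-1*, *hrde-1* and *prg-1* led with 582, 507 and 340 TPM, and *hrde-1*, which carries silencing into the nucleus, had 505, 510 and 506 TPM in replicates 1, 2 and 3. *alg-3* and *alg-4*, the Argonautes of sperm-forming germ cells, were at 0.0057 and 0.0054 TPM.

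Oocyte and maternal mRNAs made up 2.15%, 2.10% and 2.10% of protein-coding counts, the largest share of the 6 germ line lists, with all 36 genes detected and a median of 166 TPM. The eggshell proteoglycans *cpg-2* and *cpg-1* had 1673 ± 43.3 and 1633 ± 25.7 TPM (SD, n = 3), and the eggshell protein *cbd-1* had 1294 ± 11.8 TPM. *cpg-2* lies on chromosome III, 7102092 to 7103990, and *cbd-1* on chromosome IV, 11372991 to 11377627. The yolk receptor *rme-2* had 798, 765 and 766 TPM. The embryonic RNA-binding proteins *spn-4*, *puf-5* and *pos-1* had 550, 538 and 519 TPM, and the oocyte maturation factors *oma-1* and *oma-2* had 129 and 174 TPM. The least even genes of this list were the permeability barrier genes *perm-4*, with 271, 218 and 185 TPM, and *perm-2*, with 359, 300.0 and 272 TPM, both highest in replicate 1.

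**Figure D3:**
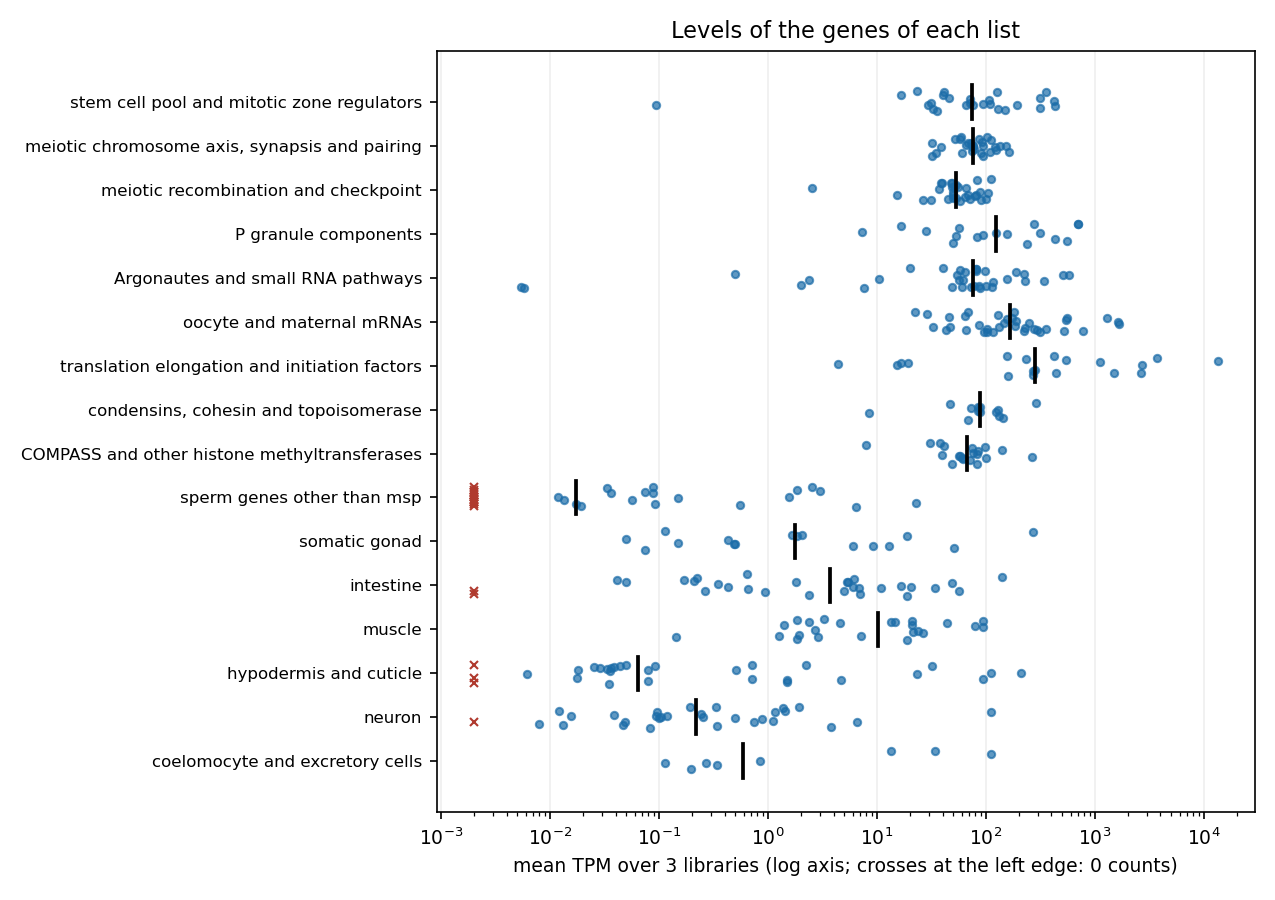
Mean TPM over 3 libraries (log axis) of each gene of 16 lists, with a black bar at the median and crosses at the left edge for genes with 0 counts in every library. The medians of the 6 germ line lists lie between 52.7 and 166 TPM, and those of the 5 somatic lists between 0.0644 and 10.3 TPM.

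The chromatin and chromosome genes of interest to the study were all detected, against 36.7% of all protein-coding genes. In the list of COMPASS subunits and other histone methylation genes all 20 genes found were detected, with a median of 67.1 TPM. *set-2*, the methyltransferase of COMPASS, had 37.1, 39.6 and 37.7 TPM, and *cfp-1*, its chromatin-targeting subunit, had 71.0, 71.8 and 73.2 TPM. *dpy-30*, a small subunit shared with other complexes, was highest at 267 TPM, and *set-16*, the other methyltransferase of this family, had 48.5 TPM. All 13 condensin, cohesin and topoisomerase genes were detected, led by *top-2*, topoisomerase II, at 291 TPM. The condensin II subunits *hcp-6*, *capg-2* and *kle-2* had 68.1, 88.9 and 88.6 TPM, and exons of all 3 overlap a gene on the other strand. *smc-4*, used in condensins I and II, had 144 TPM, and *dpy-27*, which takes its place in the dosage compensation complex of somatic cells, had 8.88, 8.14 and 8.17 TPM, the lowest of the list.

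Genes of sperm were low or at 0. Of 33 listed sperm genes other than major sperm proteins, 5 (15.2%) were detected, against 36.7% of all protein-coding genes. In this list 14 genes (42.4%) had 0 counts, against 25.6% of all protein-coding genes, among them *peel-1*, *msd-2*, *spe-42*, *spe-12* and *spe-10*. The highest was *spe-44*, a transcription factor of the sperm programme, with 24.2, 21.9 and 22.3 TPM, followed by the kinase *spe-6* at 6.47 TPM and the myosin *spe-15* at 2.98 TPM. The sperm phosphatases *gsp-3* and *gsp-4* were at 0.017 and 0.033 TPM. None of 31 major sperm protein genes was detected and 19 were at 0. These genes are near-identical, so removed reads may lower their counts.

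Somatic tissue genes were detected in part. In 5 lists of somatic tissues 57 genes (46.7%) were detected, against 36.7% of all protein-coding genes, and the lists held 0.193%, 0.264% and 0.299% of protein-coding counts. In bulk RNA, fewer cells of a type and less RNA per cell cannot be told apart. Their median was 0.904 TPM, against 0.222 TPM over all protein-coding genes. The short marker set gave a mixed picture within most tissues. In the intestine the transcription factor *elt-2* and the esterase *ges-1* had 0.170 and 0.347 TPM, whereas the 6 yolk protein genes had 5.39 to 48.5 TPM. In muscle the myosins *unc-54*, *myo-1*, *myo-3* and *myo-2* had 26.4, 2.72, 2.36 and 1.85 TPM. In the hypodermis *dpy-7* and *rol-6* had 0.033 and 0.018 TPM, whereas *col-19* had 94.3 TPM. In neurons *rgef-1* and *rab-3* had 0.104 and 0.194 TPM, whereas *unc-119* and *snb-1* had 3.76 and 111 TPM. The coelomocyte genes *unc-122* and *cup-4* had 0.271 and 0.197 TPM. In the neuron list 8 of 30 genes were detected, with *snb-1*, a synaptobrevin, highest at 111 TPM, then *osm-3* at 6.56 TPM and *unc-119* at 3.76 TPM. In the coelomocyte and excretory list 3 of 8 were detected, the proton pump subunit *vha-8* at 111 TPM, *exc-4* at 34.0 TPM and *clh-3* at 13.5 TPM. The muscle list had 22 of 24 detected, led by the myosin light chain *mlc-2* at 94.9 TPM, the integrin *pat-3* at 93.8 TPM and the troponin C *pat-10* at 78.7 TPM. The intestine list had 16 of 30 detected, led by *erm-1*, an ezrin of apical membranes, at 140 TPM, *lbp-6* at 56.1 TPM and the yolk protein *vit-6* at 48.5 TPM. In the hypodermis list 8 of 30 were detected, led by the collagens *col-140*, *col-119* and *col-19* at 209, 110.3 and 94.3 TPM. Without *erm-1*, *snb-1*, *vha-8* and *pat-3*, a choice made once the values were known, the 5 lists held 0.124%, 0.195% and 0.228%.

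The somatic gonad list held 0.211%, 0.202% and 0.180% of protein-coding counts. Of its 16 genes 10 (62.5%) were detected, against 36.7% of all protein-coding genes. A single gene, the filamin *fln-1*, supplied 91.7% of the counts of the list, at 286, 276 and 243 TPM. Among distal tip cell markers the Notch ligand *lag-2* had 2, 5 and 2 counts, or 0.115 TPM, and *gon-1* and *mig-6* had 0.494 and 2.04 TPM. Among sheath markers *ceh-18*, *lim-7* and *inx-9* had 0.490, 1.67 and 12.8 TPM, and the spermatheca markers *fkh-6* and *sth-1* had 0.150 and 0.049 TPM. The innexin *inx-8*, which joins sheath cells to germ cells, had 60.3, 44.5 and 49.3 TPM, and the Notch ligand *apx-1* had 18.7 TPM. The germ cell partners of *inx-8*, *inx-14* and *inx-22*, had 152 and 104 TPM and were picked once their values were known.

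Several large gene families had few detected genes, where 36.7% of all protein-coding genes were detected and 25.6% were at 0. Of 1311 genes for 7TM chemoreceptors 2 were detected and 1064 had 0 counts, which is 21.1% of the 5033 genes at 0. One member, *sri-40* on chromosome II, had 36.3, 36.2 and 32.0 TPM and carried 61.5% of the family's counts. Of 240 C-type lectins 6 were detected, yet *clec-87* reached 1337, 1284 and 1386 TPM, with *clec-88* at 245 TPM and *clec-91* at 227 TPM. No gene of 77 ligand-gated ion channels was detected, and the highest, *acr-11*, had 0.999 TPM, although 16 of the 77 were at 0 and the others had some counts. Detected were also 1 of 39 insulin-like peptides (*ins-17*, 3.52 TPM), 3 of 102 neuropeptide genes (*nlp-36* highest, 62.5 TPM), 2 of 44 *twk* potassium channels (*twk-5* highest, 3.41 TPM) and 1 of 57 hedgehog-related genes (*wrt-5*, 2.58 TPM). Of these, 11 insulin-like, 11 neuropeptide, 8 *twk* and 26 hedgehog-related genes were at 0, and the other undetected members had counts below the limit.

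Other families had a larger detected share, in some near the 36.7% of all protein-coding genes. Among nuclear hormone receptors 49 of 269 were detected, led by *nhr-86*, *nhr-49* and *nhr-66* at 57.1, 44.2 and 27.2 TPM. Among homeobox *ceh* genes 19 of 63 (30.2%) were detected, led by *ceh-100* at 48.4 TPM, and among T-box genes 3 of 19, led by *tbx-9* at 14.5 TPM. F-box genes of the A, B and C groups gave 44 of 322, with *fbxa-215* at 216 TPM, and genes with a MATH or BATH domain gave 29 of 73 (39.7%), with *bath-42*, *bath-41* and *math-33* at 172, 130.5 and 112 TPM. Cytochrome P450 genes gave 7 of 74, and their 3 highest, *cyp-31A2*, *cyp-31A5* and *cyp-31A3*, at 138, 102 and 99.6 TPM, belong to a single subfamily with similar sequences. UDP-glucuronosyltransferases gave 5 of 67, led by *ugt-64* at 73.5 TPM. Genes known by a sequence name alone, without a given name, were detected in 26.4% of 8800 cases, against 45.02% of the other protein-coding genes, and 60 of them stood among the 500 highest by TPM.

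Detected X-linked genes had low levels. Background knowledge holds that the X is kept silent in the mitotic and early meiotic germ line. It carried 13.5% of protein-coding genes but 1.28%, 1.24% and 1.22% of protein-coding counts in replicates 1, 2 and 3. Of its 2667 genes 28.8% were detected, against 37.9% of 17019 autosomal genes. The gap was wider in level: 5.92% of X-linked genes reached 10 TPM, against 30.1% of autosomal genes, and 8 X-linked genes (0.300%) reached 100 TPM, against 9.18% of autosomal genes. None reached 1000 TPM. Among detected genes the median was 5.18 TPM on the X, against 57.2 TPM on the autosomes, and the medians of single autosomes ranged only from 50.4 TPM on chromosome V to 60.1 TPM on chromosome I. The ratio of the X to the autosomal median was 0.0904, 0.0911 and 0.0866 in the 3 libraries, or 0.0894 ± 0.0024 (SD, n = 3), an 11.2-fold lower median. This ratio depends on which genes are included. It was 0.237 over genes with 1 count in any library, and over all protein-coding genes the medians were 0.169 TPM on the X and 0.238 TPM on the autosomes. Genes at 0 made up 20.7% of X-linked genes against 26.3% of autosomal genes. Single autosomes ranged from 11.9% on chromosome III and 16.3% on I to 40.5% on V, so the X lay within their range. Outside 9 families, listed with the autosomes below and chosen after the values were seen, 29.8% of X-linked and 43.2% of autosomal genes were detected. The X stood apart more clearly in level. X-linked genes were 28.3% of those between 1 and 10 TPM and 4.03% of those between 10 and 100 TPM.

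**Figure D4:**
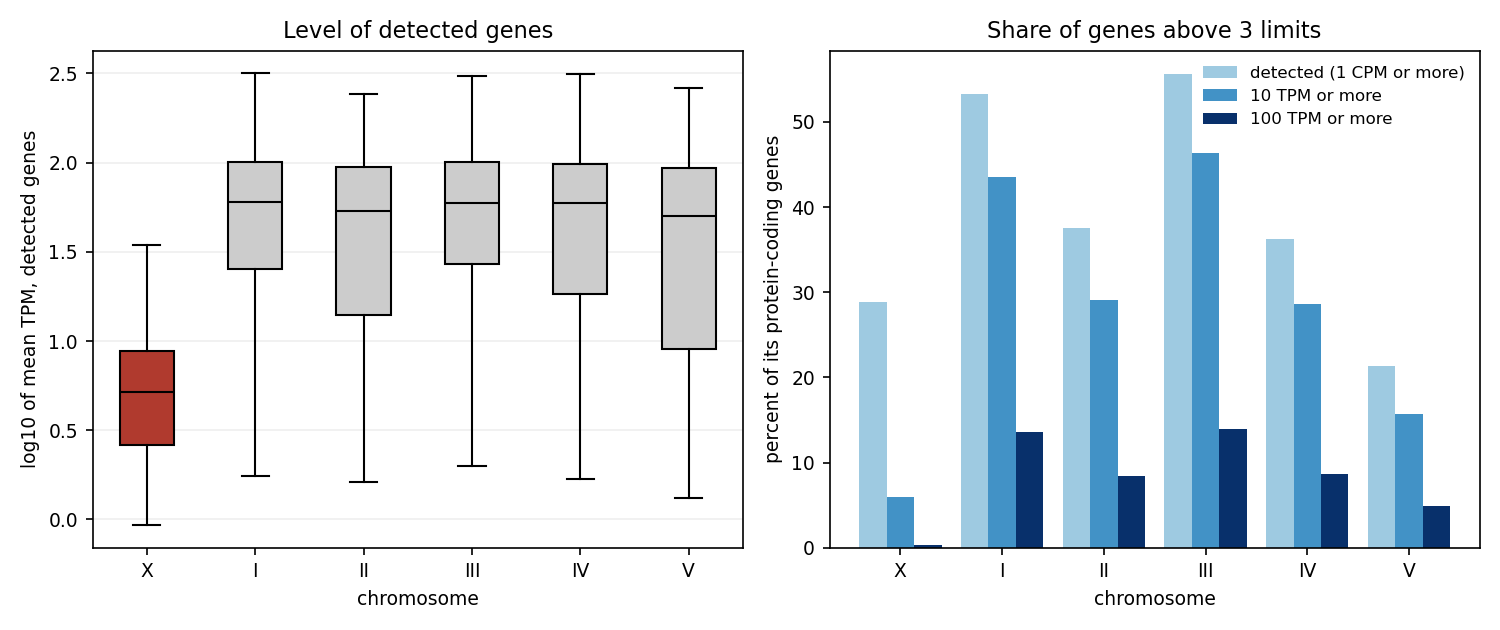
Left, log10 of mean TPM of detected protein-coding genes by chromosome, with boxes from the lower to the upper quartile, a line at the median and whiskers at the 5th and 95th percentiles. Right, percent of the protein-coding genes of each chromosome that were detected, at 10 TPM or more, and at 100 TPM or more, where the X bars stand at 28.8%, 5.92% and 0.300%.

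The highest X-linked gene was *F23A7.8*, a short gene known by its sequence name (16213373 to 16213576), with 459, 294 and 260 TPM. It was followed by *C39D10.7* at 184 TPM, *T04G9.7* at 182 TPM, the histone *his-38* at 162 TPM, the protein disulfide isomerase *pdi-2* at 132 TPM, *F59C12.4* at 125 TPM, the ABC transporter *mrp-4* at 124 TPM, the endoplasmic reticulum chaperone *hsp-3* at 124 TPM, *try-14* at 97.8 TPM and *mlc-2* at 94.9 TPM. Of these 10 genes, *F59C12.4* and *mlc-2* were not highest in replicate 1, and *mlc-2* belongs to the muscle list. Of the 173 germ line list genes 6 were X-linked (3.47%), which were the 4 *meg* genes, *nrde-3* at 7.67 TPM and *alg-1* at 2.37 TPM. By contrast, 24.6% of the genes of the 5 somatic lists were X-linked, among them 10 of the 24 muscle genes.

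Some gene symbols share a stem between an autosome and the X, which does not by itself show that the genes are copies. The highest autosomal member was above the highest X-linked member in most of these sets. The comparison, set up once the values were known, took every pair of symbols that differ only in the number after the point. Of 34 such sets with members on both, 29 had a detected gene, and the highest autosomal member exceeded the highest X-linked member in 26 of the 29. It was more than 10-fold higher in 14. Some sets held unequal numbers of members, as with 7 autosomal and 2 X-linked for *slc-17* or 1 and 4 for *dot-1*. The highest of more members tends to be higher. Detected X-linked genes were also lower as a whole, with a median of 5.18 TPM against 57.2 TPM on the autosomes. *eef-1A.2* on the X had 16.5, 16.2 and 17.0 TPM, against 13529, 13707 and 12868 TPM for *eef-1A.1*, an 808-fold difference in level. *rpl-11.2* had 37.4, 46.8 and 49.5 TPM, against 5794, 5852 and 5839 TPM for *rpl-11.1*, and *rpl-25.1* had 15.9 TPM, against 4725 TPM for *rpl-25.2*. The X-linked member was the higher for *sfxn-1.5*, *selt-1.1* and the phosphofructokinase *pfk-1.1*, at 12.98, 17.5 and 11.5 TPM. Outside this naming scheme, and also chosen after their values were seen, the poly(A)-binding protein *pab-2* on the X had 4.37 TPM, against 1107 TPM for *pab-1*, and the H3.3 histone gene *his-71* on the X had 2.94 TPM, against 305 TPM for *his-72*.

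Autosomes differed in how many genes were detected and in the lower part of the range of detected genes. The lower quartile of detected genes was 8.99 TPM on chromosome V, 14.0 TPM on II and 18.3 TPM on IV, and 25.3 and 27.1 TPM on I and III. Chromosomes III and I were the richest, with 55.6% and 53.2% of their genes detected, and chromosome V the poorest, with 21.3%. Chromosome V held 25.2% of all protein-coding genes, 39.9% of those at 0 and 890 of the 1311 chemoreceptor genes. Leaving out 9 families (chemoreceptors, C-type lectins, collagens, F-box genes, nuclear hormone receptors, MATH and BATH genes, ligand-gated channels, hedgehog-related genes and major sperm proteins), an alternative chosen after the values were seen, detection on chromosome V was 27.6%, still the lowest, against 55.4% on chromosome I and 58.4% on chromosome III. When each chromosome was divided into 10 equal parts, the 4 central parts had a higher detected share than the outer 6 on every autosome, with 58.5% against 48.6% on chromosome I and 27.1% against 17.1% on chromosome V. The X did not follow this, with 26.7% in its 4 central parts and 30.5% in the outer ones.

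The 3 libraries agreed closely. Detected genes had a median CV of 4.64%. The CV expected from counting error, the inverse square root of the mean count, had a median of 2.85%. The median of an SD of 3 values lies below the true SD, so the observed and expected CV are not strictly alike. The CV fell with level, from a median of 12.7% among 1847 genes at 1 to 10 CPM to 4.31%, 3.03% and 2.46% at 10 to 100, at 100 to 1000 and at 1000 CPM or more. The CV expected from counting error had a median of 10.95% in the lowest class and 0.457% in the highest. In the highest class the spread thus came mostly from other sources. Over 8714 genes the biological CV that edgeR estimated was 5.98%. Replicates 2 and 3 were the closest pair, with 127 detected genes (1.76%) apart by more than 1.5-fold, compared with 274 for replicates 1 and 2 and 318 for replicates 1 and 3. Among the 5377 genes of at least 10 CPM the most even were *bath-1*, with 415, 408 and 411 counts, followed by *Y39A1A.3*, *btf-1*, *rfp-1* and *pigk-1*, all with a CV of 0.14% or less.

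The 10 genes of largest CV were *asp-1* (58.0%), *myo-1* (53.4%), *vit-3* (51.8%), *asp-6* (47.7%), *vit-1* (47.0%), *vit-6* (46.8%), *vit-4* (44.9%), *vit-5* (44.5%), *vit-2* (42.7%) and *dct-16* (39.1%), all lowest in replicate 1. Apart from *dct-16*, they encode aspartyl proteases of the intestine, a pharyngeal myosin and the 6 yolk proteins, which are made in the intestine. *asp-1* had 7.48, 20.4 and 29.4 TPM in replicates 1, 2 and 3, and *vit-6* had 24.8, 51.0 and 69.7 TPM. Of the 100 most uneven genes 69 were lowest in replicate 1, compared with 30.4% of all 5377 genes, and 29 were highest in replicate 1, compared with 1758 of the 5377. These 100 included 19 collagens and 35 X-linked genes (35.0%), compared with 4.87% X-linked among the 5377. They also included 27 of the 36 somatic list genes among the 5377, and 2 of the 167 germ line list genes. Germ line list genes were a small share of the 5377 as well. All 19 collagens of at least 10 CPM were among the 100, and the collagen family as a whole took 0.0756%, 0.124% and 0.134% of protein-coding counts.

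Those 29 genes went the other way. By the ratio of replicate 1 to the higher of the other libraries, the 10 leading genes were *F23A7.8* (1.57-fold), *tbh-1* (1.48-fold), *C17G1.2* and *sdz-27* (both 1.44-fold), *plg-1* (1.42-fold), *sft-4*, *ile-2*, *ZK185.1*, *Y32F6A.5* and *skpo-1*. *tbh-1*, a tyramine beta-hydroxylase made in a pair of neurons and in gonadal sheath cells, had 117, 76.6 and 78.6 TPM. *fln-1* and *inx-8* of the somatic gonad list were also highest in replicate 1, as given above. The distal tip cell marker *mig-6* was instead lowest in replicate 1, with 215, 322 and 327 counts, so somatic gonad genes did not all go the same way. *tbh-1* and the list of 10 were chosen after their values were seen. Whether the amount of attached tissue or the place of the cut differed between the samples was not tested.

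**Figure D5:**
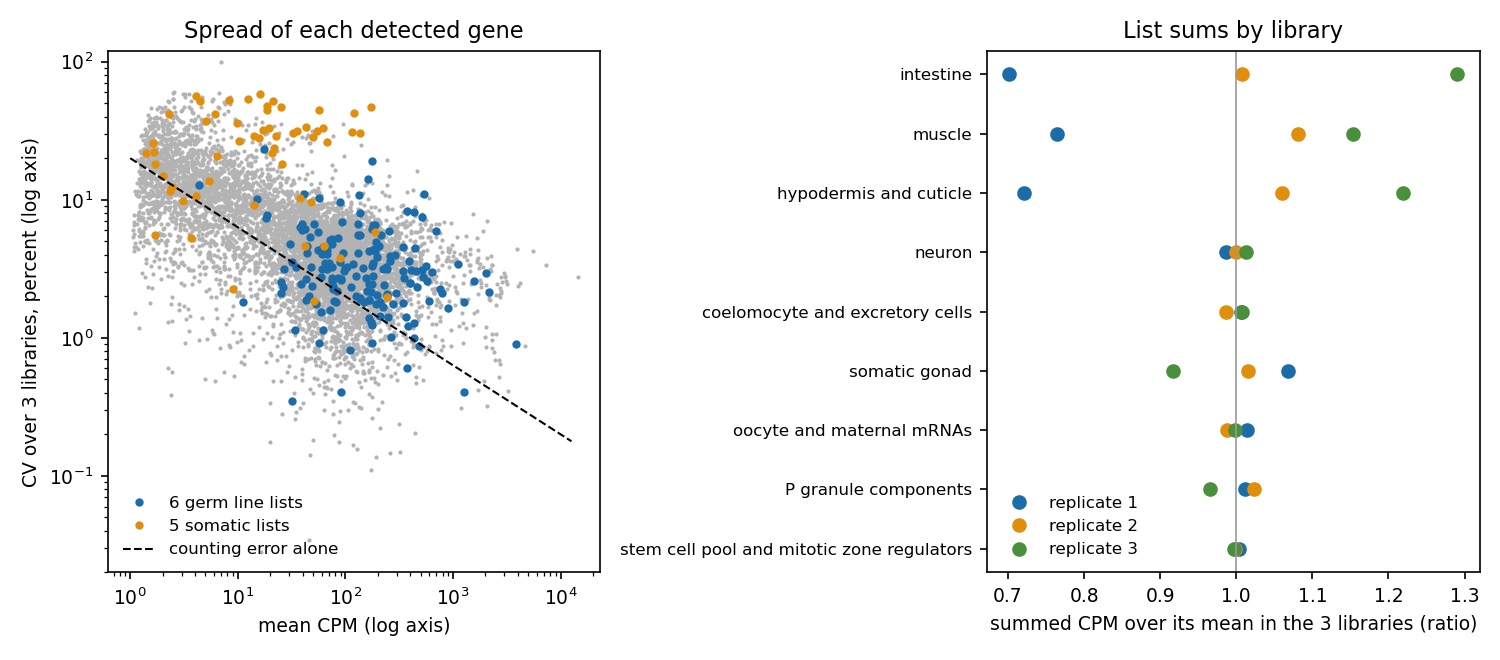
Left, CV over the 3 libraries against mean CPM (both log axes) for each detected protein-coding gene, with the counting error as a dashed line. Right, summed CPM of 9 lists in each library divided by the mean of the 3, where intestine, muscle and hypodermis lie lowest in replicate 1 and the neuron list and the stem cell list stay close to 1. Most counts of the neuron list are from *snb-1*: the list holds 0.0116% of protein-coding counts, and 0.00403% without it.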

How the data were processed

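RNA of dissected distal gonads was sequenced as single reads of 50 bases. The labels name polyA RNA, whereas the protocol and the paper describe total RNA depleted of ribosomal RNA, which is used here. The authors mapped reads to WS254 with STAR 2.4.1d, removed those with a mapping quality under 10 with SAMtools 0.1.19 and deposited unnormalized counts per gene from HTSeq 0.7.2. The kit marks strand, but the strand setting and mode of the counter are not given in the sources used here. Of the detected genes 26.3% overlap exons of a gene on the other strand, and their counts may be mixed. The deposited table of gene numbers from the authors' comparison was not used.

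Rows without a gene numbered 0. CPM, TPM and CV were computed here with Python 3.11.15 and pandas 2.3.3, from counts and the union of exons in the Ensembl 115 annotation of WBcel235, which held 46549 of 46772 genes. Scaling factors and the biological CV came from edgeR 4.0.16 and DESeq2 1.42.0 in R 4.3.3. The biological CV was checked on simulated data, and the scaling factors were not. No comparison between groups was made and no test was run. The 16 lists (399 genes, of which 5 symbols were not found) and 24 families were written from general knowledge, and these and the other choices were made with earlier results of these data known. Genes named were the 10 highest by TPM and by CPM, the 5 highest non-coding genes outside rRNA, the 3 highest of each list and family and up to 5 members at 0, the 10 highest on the X, and the 10 most and 5 least variable at 10 CPM or more. The short set of cell type markers was also named in the plan. All others were chosen after their values were seen. Alternatives were TMM and DESeq2 scaling, library sizes without rRNA, other limits, denominators and lengths, and leaving out each library.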

Additional observations from a re-analysis of the deposited data

How the results depend on the processing

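The 7224 detected genes became 14653 when 1 count in any library sufficed, and under the other limits and scalings tried stayed between 7214 and 8272. Leaving out each library gave 7286 to 7380 detected genes and 5573 to 5660 genes at 0. The number of genes holding 50% of protein-coding counts was 494, or 112 on the TPM scale. The 6 germ line lists held 5.22% of protein-coding counts, 2.63% of TPM, 4.36% of all counts and 5.09% of counts without rRNA. The 5 somatic lists held 0.252% of protein-coding counts and 0.168% of TPM, and 0.229% to 0.282% without each library. Of the shares of the 16 lists and 24 families, 35 moved by more than 1 SD between libraries on the TPM scale, 34 relative to all counts and 20 relative to counts without rRNA. The detected share of X-linked genes was 28.8%, 36.6% with at least 10 counts in every library, 79.3% with 1 count in any library, and 29.1% to 30.3% without each library. The X to autosome ratio of median TPM was 0.0894, 0.0791 with at least 10 counts, 0.237 with 1 count in any library, 0.0840 to 0.0913 without each library, and 0.0867 without the 9 families and the somatic list genes, an alternative chosen after the data were seen. The median CV was 4.39% to 4.45% under the other scalings and 3.54% to 4.11% without each library. An SD from fewer libraries has a lower median for that reason alone, so this drop cannot be read as better agreement. Of the 10 highest genes by TPM, 2 were among the 10 highest without length. No paired analysis was possible because a single group was described. With 3 libraries, no gene was examined for an outlying library. Depth limits statements on genes under 1 CPM, where a library holds about 25 counts or fewer, and near-identical gene copies stay uncertain at any depth.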

Other observations

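Cytoskeletal genes showed one or a pair of dominant copies each, chosen after their values were seen. Among actins *act-2* had 604, 686 and 646 TPM in replicates 1, 2 and 3, with a mean of 645 TPM, whereas *act-1*, *act-3*, the muscle actin *act-4* and the intestinal actin *act-5* had 33.4, 42.1, 44.3 and 10.8 TPM. *act-4* and *act-5* were uneven between libraries, with a CV of 28.6% and 35.7%, and lowest in replicate 1. Actin genes are near-identical over long stretches, so their levels depend on which reads mapped to a single place. Among tubulins *tba-2* and *tba-1* had 992 and 617 TPM and *tbb-2* and *tbb-1* had 898 and 579 TPM, while *tba-4* had 3.11 TPM. The eIF5A genes also differed, with *iff-1* at 2700 TPM and *iff-2* at 19.4 TPM, both autosomal. Among glyceraldehyde-3-phosphate dehydrogenase genes the autosomal *gpd-1* and *gpd-4* had 320 and 191 TPM, while the X-linked *gpd-2* and *gpd-3* had 16.4 and 22.01 TPM. How far removed reads that map to several places lower each of these 4 genes was not examined.

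Some abundant genes carry only a sequence name. Below the 3 that RefSeq names as ribosomal proteins (*Y37E3.8*, *C37A2.7* and *W01D2.1*), the highest were *R53.4* at 863 TPM, *T27E9.2* at 779 TPM, *T19H12.2* at 643 TPM, *F36A2.7* at 619 TPM and *T28D9.1* at 615 TPM. All 8 were detected.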
